A study of Mus musculus with 2 samples.

Results

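The regions described here are 50 kb stretches of the mouse genome in which binding sites of the transcription factors STAT3 and STAT5 lie densely, in T helper 17 (Th17) cells. A site was a 400 bp tile of chromosomes 1 to 19 that held 30 or more reads of either antibody and more reads of both together than each neighbouring tile, and a dense bin was a 50 kb bin with 8 or more sites. There were 1997 dense bins among the 47770 bins that held a read (4.18%). They were set beside the 8895 bins of 1 to 2 sites, and 7719 further bins had 3 to 7 sites. Because the reads of both libraries chose the bins, the number and height of their sites are a description and not a finding. The spacing and span of the sites follow in part from the number required, and a raised background helps tiles reach the minimum. The ratio of STAT5 to STAT3 was not fixed by the choice, but the minimum of 30 reads shapes it.

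STAT3 and STAT5 are latent cytoplasmic proteins that, once phosphorylated by Janus kinases at a cytokine receptor, enter the nucleus and bind closely similar DNA sequences. STAT3 acts downstream of IL-6, IL-21 and IL-23 and is needed for the Th17 programme, whereas STAT5 acts downstream of IL-2 and restrains it, so the balance of the factors over the same DNA is a long-standing question in these cells. Genes that define a T cell type often have many binding sites spread over long stretches around them.

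Both groups were wild-type C57BL/6J cells, and they shared the same culture. Naive CD4+ T cells of spleen and lymph node were sorted and grown for 3 days with antibodies to CD3, CD28 and IL-4, with IL-6 (20 ng/ml) and TGF-beta (2 ng/ml). The labels also list an antibody to IL-2, dosed in the units usual for the cytokine, so whether IL-2 was blocked or supplied is not settled by them. The STAT3 group received IL-6 (40 ng/ml) for 30 minutes before crosslinking with 1% formaldehyde, and its chromatin was precipitated with an antibody to STAT3. The STAT5 group received IL-2 (200 IU/ml) for 30 minutes instead, and its chromatin was precipitated with mixed antibodies to STAT5a and to STAT5b. Antibody and cytokine thus differed together and cannot be told apart, the cells are a mixed culture made in vitro, and age and sex of the mice and any pooling are not stated. No markers can be checked in chromatin reads of this kind.

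The STAT3 library held 20784388 reads on nuclear chromosomes and the STAT5 library 17963766, each at a position and strand of its own. There was 1 library per antibody and no input library was analysed here. Differences between kinds of bin are therefore differences within these libraries, bins and sites are not replicates, and no p-value is given. Intervals of ratios and of background folds are exact 95% intervals that reflect counting error of reads alone. Those of shares are exact binomial 95% intervals that treat sites or bins as independent, which neighbouring ones are not. Coordinates refer to mm9 and start at 1. Genes are not named, since no annotation of mm9 was used here.

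Bins became fewer as the number of sites in them grew, with small exceptions above 20 sites. There were 5344 bins with 1 site, 750 with 7, 535 with 8, 282 with 10 and 54 with 15. Beyond 20 sites there were 17 bins with 21, and the last bins had 28, 36 and 37 sites. No gap separated the dense bins from the rest: bins of exactly 8 sites had a median of 49 STAT3 and 54 STAT5 reads per site, and bins of exactly 7 sites had 47 and 53. The minimum of 8 is thus a line drawn through a continuous range.

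**Figure D1:**
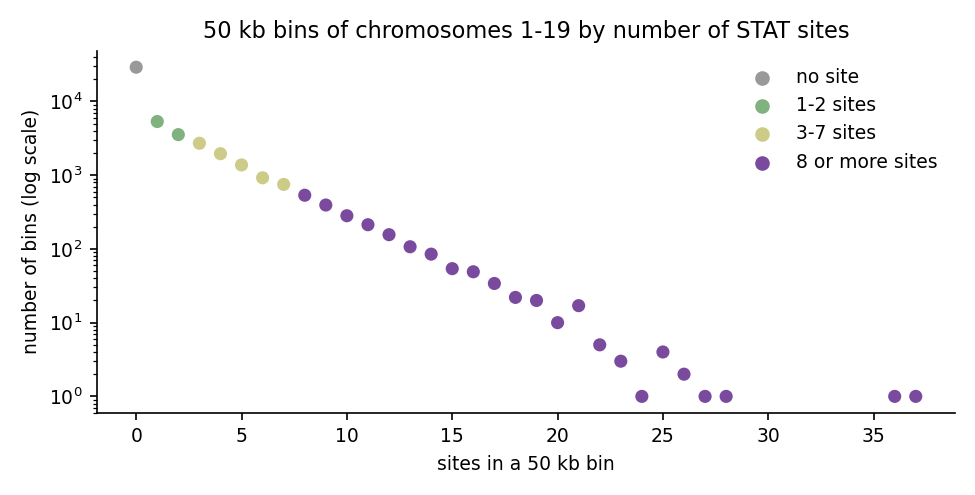
Number of 50 kb bins (log scale) against the number of STAT sites in the bin, for chromosomes 1 to 19. Each point is 1 number of sites. The 1997 dense bins (purple) continue the line of the sparser bins, and 2 bins with 36 and 37 sites lie apart at the right.

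The dense bins held far more of the data than their share of the genome. They were 4.18% of the bins with a read and held 21430 of the 67512 sites (31.7%), 19.03% of the autosomal STAT3 reads and 24.5% of the STAT5 reads. The median dense bin had 1741 STAT3 and 1855 STAT5 reads, against 443 and 340 in bins of 1 to 2 sites and 169 and 104 in bins without a site. Of the reads in dense bins, 42.9% of STAT3 and 51.7% of STAT5 fell in site tiles. The rest lay in other tiles, which include those that adjoin a site. A median of 16 of the 125 tiles in a dense bin had 30 or more reads of either library.

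Within a dense bin the sites stood close together. The median distance between neighbouring sites was 2400 bp (quartiles 1200 and 4800), and 49.6% of the 19433 neighbouring pairs were 2000 bp apart or less. The rule allows no distance under 800 bp, and 3008 pairs (15.5%) stood at exactly that distance, where broad enrichment can be counted as separate sites. When a site also had to exceed the tiles 2 away on each side, 1372 dense bins were left. From the first to the last site the median span was 39.2 kb (32.8 to 44.0), so the sites of most members covered the larger part of the bin. Many sites in a bin leave short gaps and reach over much of it, so distance and span follow in part from the rule for dense bins. Neither was compared with sites placed at random, and both are a description of the members and not a finding.

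Dense bins lay next to each other and on every autosome. Chromosome 11 had 198 of them, which is 8.33% of its bins, against a median of 4.17% over the autosomes and 2.85% on chromosome 18, the lowest. Of the 1997 dense bins, 990 (49.6%, interval 47.4 to 51.8%) adjoined another, and they formed 398 runs of 2 or more besides 1007 single bins. The longest run took 8 bins on chromosome 12 from 74650000 to 75049999, with 109 sites that summed to 8477 STAT3 and 13850 STAT5 reads. A run of 7 bins on chromosome 1 from 60800000 to 61149999 had 111 sites with 11876 STAT3 and 16841 STAT5 reads. The run of 6 bins on chromosome 7 from 134150000 to 134449999 had 74 sites with 6690 STAT3 and 5642 STAT5 reads. In reads per 1000000 nuclear reads of each library (RPM), STAT5 was 1.89, 1.64 and 0.976 times STAT3 in these runs, so the longest stretches included both STAT5-leaning and even ones.

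The surroundings of dense bins were richer in sites than those of bins of 1 to 2 sites, dense neighbours included. Bins that adjoined a dense bin had a median of 5 sites, 29.7% of them were dense and 5.31% had no site. Bins that adjoined a bin of 1 to 2 sites had a median of 1 site, 4.18% were dense and 34.2% had none. At 250 kb the median was 2 sites around dense bins, with 25.4% of bins without a site, and 1 site around bins of 1 to 2, with 41.6%. At 500 kb both medians were 1 site, and 36.3% and 45.9% of bins had none. The gap was thus smaller at larger distances. Over all bins with a read 61.0% had no site.

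The member with the most sites was raised along nearly its whole length. It lies on chromosome 11 from 3050000 to 3099999 and had 37 sites, of which 34 had 30 or more reads of both antibodies. Its sites held a median of 73 STAT3 and 60 STAT5 reads. The tile at 3059600 to 3059999 had 278 STAT3 and 300 STAT5 reads, that from 3081200 to 3081599 had 155 and 250, and that from 3093600 to 3093999 had 176 and 532. The first site had 58 STAT3 and 31 STAT5 reads and the last 93 and 55. Of the 37 sites 1 was called higher with STAT5, by the 2-fold rule given below, and 0 with STAT3.

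Its median tile, counted over all 125 tiles, had 56 STAT3 and 38 STAT5 reads, against a median of 6 and 4 over all dense bins. In this bin 109 tiles passed 30 reads of either library, which leaves little room for a site to stand out. The adjoining bin from 3000000 to 3049999 had 19 sites and a median tile of 24 STAT3 and 14 STAT5 reads. Among all dense bins the median tile reached 20 STAT3 reads in 7 and 20 STAT5 reads in 8, and in no bin of 1 to 2 sites. This measure was chosen after its values were seen, and why these bins are raised was not tested. Without the chromosome 11 bin the share of STAT5-higher sites in dense bins, described below, was the same at 22.2%.

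The member with 36 sites, on chromosome 9 from 32500000 to 32549999, had sites that differed in their balance. It was also raised between them, with a median tile of 31 STAT3 and 41 STAT5 reads and 90 of 125 tiles at 30 or more reads of either library. Its first site (32500400 to 32500799) held 262 STAT3 and 340 STAT5 reads. About 2 kb on, the tile at 32502400 to 32502799 held 53 STAT3 and 481 STAT5 reads, and that from 32506400 to 32506799 had 33 and 264. In the second part of the bin the tile at 32530800 to 32531199 held 241 STAT3 and 484 STAT5 reads, that from 32538400 to 32538799 had 214 and 119, and that from 32546000 to 32546399 had 125 and 364. Sites that leaned strongly to STAT5 thus stood within a few kilobases of sites shared by both antibodies. Summed over the 36 sites, STAT5 was 2.10 times STAT3 on the RPM scale (interval 2.01 to 2.21), and 9 sites were called higher with STAT5 and 0 with STAT3. Over all sites of the genome 25.3% were called higher with STAT5 and 2.63% with STAT3, so 9 of 36 is no more than the usual share.

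The third member, on chromosome 19 from 10800000 to 10849999, had 28 sites and was even. Its median tile had 20 STAT3 and 14 STAT5 reads, and 46 tiles passed 30 reads of either library. The tallest tile, at 10838000 to 10838399, held 421 STAT3 and 363 STAT5 reads, and the tile from 10813200 to 10813599 had 257 and 167. The tile at 10815200 to 10815599 held 190 STAT3 and 85 STAT5 reads, whereas that from 10826800 to 10827199 had 74 and 167. No site was called higher with either antibody, and the summed ratio was 0.966 (0.910 to 1.03).

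**Figure D2:**
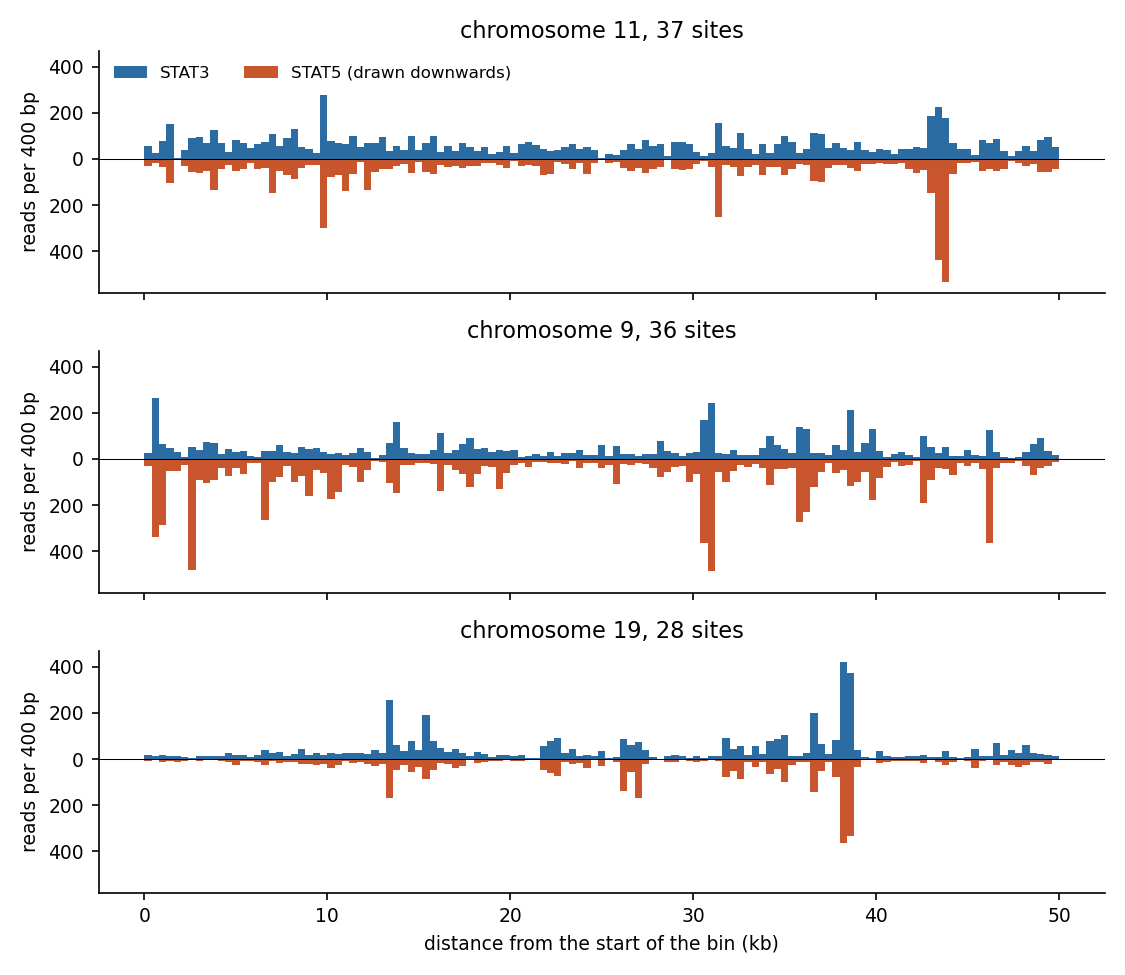
Reads per 400 bp tile along the 3 dense bins with most sites, STAT3 upwards and STAT5 downwards, against the distance from the start of the bin in kb. Tiles of 30 or more reads of either library number 109 of 125 in the chromosome 11 bin, 90 in the chromosome 9 bin and 46 in the chromosome 19 bin, and the tallest tiles of the last 2 reach 484 STAT5 and 421 STAT3 reads.

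The other 7 of the 10 members with most sites had 25 to 27 each. On chromosome 14 from 54800000 to 54849999 there were 27 sites with a median of 39 STAT3 and 74 STAT5 reads, and a summed ratio of STAT5 to STAT3 of 1.84 (1.74 to 1.95). On chromosome 2 from 58000000 to 58049999 there were 25 sites, 11 of them called higher with STAT5 and 1 with STAT3, and the ratio was 2.40 (2.27 to 2.54). A bin of chromosome 10, from 79600000 to 79649999, had 26 sites and a ratio of 1.13 (1.07 to 1.19). A bin of chromosome 12, from 109200000 to 109249999, also had 26 sites and a ratio of 1.27 (1.19 to 1.37).

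The remaining 3 had 25 sites and similar ratios. They lay on chromosome 2 from 11100000 to 11149999 (1.43, 1.36 to 1.499), on chromosome 2 from 167750000 to 167799999 (1.41, 1.34 to 1.48) and on chromosome 11 from 117150000 to 117199999 (1.40, 1.33 to 1.48). Their tallest STAT3 tiles had 610, 567 and 310 reads, and their tallest STAT5 tiles 462, 474 and 561. Similar summed ratios thus came with a higher STAT3 maximum in the first of these bins and a higher STAT5 maximum in the last.

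Sites were taller in dense bins than in bins of 1 to 2 sites. The median site in a dense bin had 52 STAT3 reads (quartiles 32 and 94) and 58 STAT5 reads (35 and 122), which is 2.50 and 3.23 RPM. In bins of 1 to 2 sites the medians were 37 (17 and 62) and 45 (30 and 78). The medians were thus 1.41-fold higher for STAT3 and 1.29-fold for STAT5, while the quartiles of the groups overlapped widely. The difference was larger at the upper end: 100 or more STAT3 reads were found at 22.9% of sites in dense bins (22.3 to 23.4%) and at 10.4% in bins of 1 to 2 sites (9.83 to 10.9%). For STAT5 these shares were 30.7% (30.0 to 31.3%) and 17.7% (17.0 to 18.3%).

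The tallest sites of the genome lay largely in dense bins. Of the 100 sites with most reads of both libraries together, 74 were in dense bins and 1 in a bin of 1 to 2 sites. Of the 1000 tallest, 614 (61.4%, interval 58.3 to 64.4%) were in dense bins and 48 (4.80%) in bins of 1 to 2 sites, where 31.7% and 18.4% of all sites lay. Tiles can hold at most 800 reads per library, since each position and strand was kept once, and 4.01% of sites in dense bins were over 400 in either library, against 0.731% in bins of 1 to 2 sites. Height differences are therefore compressed most in the dense bins.

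A dense bin was usually led by a few tall sites. The tallest site of a dense bin had a median of 446 reads of both libraries together (quartiles 301 and 637), the next 292, the fourth 160 and the eighth 70 (55 and 100). The single site of a bin with 1 site had a median of 79 reads (56 and 130), so the eighth site of a dense bin was about as tall as a lone site. The tallest site of a dense bin was 3.56 times its median site (2.55 to 5.03) and held 25.2% of the reads in the bin's sites (20.5 to 31.1%). Over the 1997 bins that share ran from 9.39 to 62.8%. The maximum of many sites is larger than that of few even when all are drawn alike, so this order says nothing on its own about dense bins.

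To measure height in a library that had not chosen the sites, the rule was run on each library alone. In the 1232 bins with 8 or more sites chosen from STAT3 reads only, the sites had a median of 57 STAT5 reads (32 and 121), against 42 (25 and 77) at STAT3-chosen sites in bins of 1 to 2. Of the former 77.8% (77.1 to 78.6%) had 30 or more STAT5 reads, and of the latter 67.0% (66.2 to 67.9%). In the 1317 bins with 8 or more sites chosen from STAT5 reads only, the median was 57 STAT3 reads (28 and 104), against 38 (12 and 71), and the shares with 30 or more were 74.0% (73.2 to 74.7%) and 58.0% (57.2 to 58.9%). In reads per site the other antibody was thus higher in the denser bins whichever library had chosen the sites. As a multiple of background, the mean of tiles 2000 bp or more from every site in the same kind of bin, they were not: the median was 15.7 times the background in dense bins and 20.8 times in bins of 1 to 2 sites for STAT5 at STAT3-chosen sites, and 11.1 and 12.9 times for STAT3 at STAT5-chosen sites. More than 2 times the background was found for STAT5 at 99.3% (99.1 to 99.4%) and 99.5% (99.4 to 99.6%) of STAT3-chosen sites, and for STAT3 at 91.7% (91.3 to 92.2%) and 87.2% (86.6 to 87.8%) of STAT5-chosen sites.

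The background between sites was higher in dense bins in both libraries. Sites were called on read counts with no background taken off, so a raised local level helps tiles reach the minimum. The rule for dense bins thus favours bins of higher background, and how much of the folds below this accounts for was not tested. In tiles 2000 bp or more from every site there were 4.96 STAT3 and 3.49 STAT5 reads per tile in dense bins, 2.81 and 1.86 in bins of 1 to 2 sites, and 1.49 and 0.931 in bins without a site. The dense bins were 1.77-fold (1.76 to 1.77) above the bins of 1 to 2 sites for STAT3 and 1.88-fold (1.87 to 1.88) for STAT5. Against bins without a site the values were 3.33-fold and 3.74-fold. The difference ran through nearly all members: of the 1992 dense bins with 10 or more such tiles, 98.1% (97.4 to 98.6%) were above the median bin of 1 to 2 sites for STAT3 and 98.2% (97.5 to 98.7%) for STAT5. The quartiles of the bin means were 4.16 and 5.81 STAT3 reads in dense bins and 2.25 and 3.35 in bins of 1 to 2 sites.

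The gap in background was smaller at larger distances from a site but was present at each distance examined. At 800 to 1600 bp from the nearest site the background of dense bins was 1.85-fold that of bins of 1 to 2 sites for STAT3 and 2.10-fold for STAT5. At 2000 to 2800 bp it was 1.65-fold and 1.74-fold, and at 8400 to 16000 bp it was still 1.46-fold (1.45 to 1.47) and 1.47-fold (1.45 to 1.48). At that largest distance the levels were 4.10 STAT3 and 2.71 STAT5 reads per tile in dense bins and 2.81 and 1.85 in bins of 1 to 2 sites. Tiles with no read of either library, which include sequence where 25 nt reads cannot be placed, made up 3.98% of the background tiles of dense bins and 9.60% of those in bins of 1 to 2 sites. Tiles with 10 or more reads, some of which may be sites below the minimum, made up 13.4% and 3.18%, and without them the fold was 1.52 for STAT3 and 1.61 for STAT5.

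**Figure D3:**
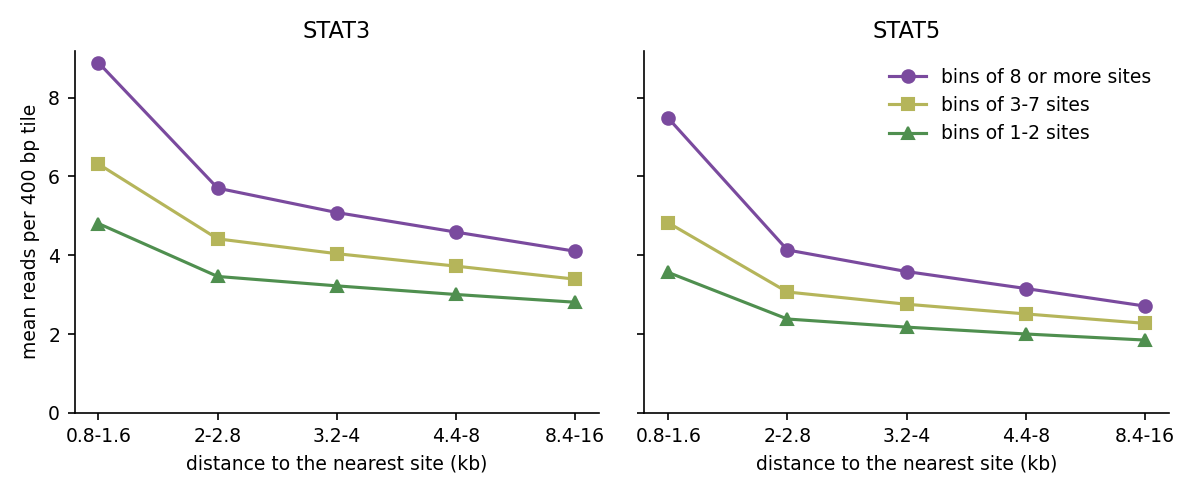
Mean reads per 400 bp tile against the distance of the tile from the nearest site, for STAT3 (left) and STAT5 (right) in 3 kinds of bin. Dense bins (circles) lie above bins of 3 to 7 sites (squares) and of 1 to 2 sites (triangles) at each distance, from 8.89 against 4.80 STAT3 reads nearest to a site to 4.10 against 2.81 farthest from it.

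Raised background reached beyond the dense bins themselves. Bins without a site had 2.66 STAT3 and 1.71 STAT5 reads per background tile when they lay within 2 bins of a dense bin (620 bins), and 1.47 and 0.914 when they lay farther away. Among bins of 1 to 2 sites the levels were 3.37 and 2.25 within 2 bins of a dense bin and 2.70 and 1.79 farther away. Median site height in these bins was 40 STAT3 and 45 STAT5 reads near a dense bin and 37 and 45 away from it, so for STAT5 no difference in median height went with the difference in background.

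Relative to the background around them, sites in dense bins stood out less. The median STAT3 site was 10.5 times the background in dense bins and 13.2 times in bins of 1 to 2 sites, and for STAT5 it was 16.6 and 24.2 times. With the background subtracted, the median height was 47.0 against 34.2 STAT3 reads and 54.5 against 43.1 STAT5 reads. Sites in dense bins were thus higher in absolute reads and lower as a multiple of their surroundings.

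Height and background were both larger in bins with more sites, with small dips along the range. Bins of 1 site had a median of 35 STAT3 and 44 STAT5 reads per site and a background of 2.65 and 1.74 reads per tile. At 8 sites the values were 49 and 54 reads per site with a background of 4.54 and 3.17. The 171 bins of 16 or more sites had 59 STAT3 and 69 STAT5 reads per site, with a background of 6.37 and 4.67.

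**Figure D4:**
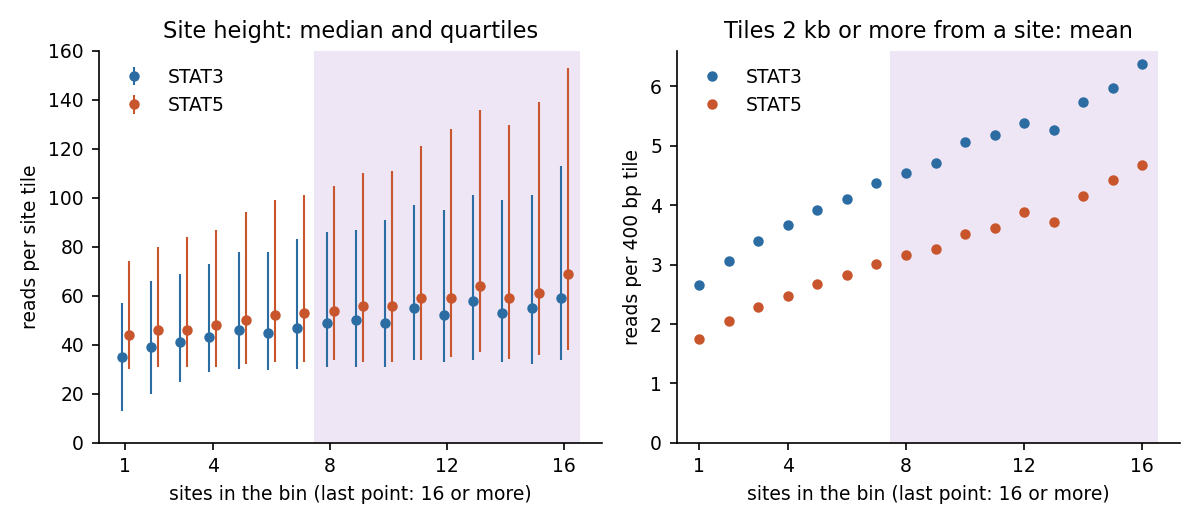
Reads per site tile (left: median as a point, quartiles as bars) and mean reads per background tile (right) against the number of sites in the bin, with the dense bins shaded. Medians run from 35 STAT3 and 44 STAT5 reads at 1 site to 59 and 69 at 16 or more, with wide overlap, and the background runs from 2.65 and 1.74 to 6.37 and 4.67.

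Dense bins with fewer than 10 background tiles were left out of the ranking by background. Among the others the highest background was found on chromosome 19 from 10800000 to 10849999 for STAT3, with 13.85 STAT3 and 8.05 STAT5 reads per tile over 20 tiles. On chromosome 14 from 54800000 to 54849999 it was 13.6 STAT3 and 13.7 STAT5 reads over 10 tiles, the highest for STAT5. They rank the third and the fourth in number of sites, and few of their tiles are far from a site. More tiles stood behind the next values. The bin of chromosome 4 that spans 32350000 to 32399999 showed 12.2 STAT3 and 8 STAT5 reads over 31 tiles. That of chromosome 7 spanning 132700000 to 132749999 showed 12.1 and 10.6 over 41, and that of chromosome 11 spanning 46150000 to 46199999 showed 9.625 and 10.35 over 40.

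The balance of the antibodies at the median site was nearly the same in dense bins and in bins of 1 to 2 sites, but the extremes were rarer in dense bins. The median log2 ratio of STAT5 to STAT3 RPM per site was 0.25 in dense bins (quartiles -0.41 and 1.35) and 0.30 in bins of 1 to 2 sites (-0.48 and 2.27), a difference of -0.06. A site was called higher with an antibody when the interval of its RPM ratio lay wholly beyond 2-fold. STAT5 was higher at 4747 of the 21430 sites in dense bins (22.2%, 21.6 to 22.7%), against 25.3% of all sites and 31.3% (30.5 to 32.1%) of those in bins of 1 to 2 sites. STAT3 was higher at 477 sites in dense bins (2.23%, 2.03 to 2.43%), against 2.63% of all sites and 2.92% (2.64 to 3.24%) in bins of 1 to 2 sites. The number of STAT3-higher sites depends on the scaling: with the libraries scaled to reads far from sites they made up 0.742% of sites in dense bins and 1.19% in bins of 1 to 2 sites.

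Sites with both antibodies made up more of the dense bins. There, 13548 sites (63.2%) had 30 or more reads of both, 3524 (16.4%) of STAT3 only and 4358 (20.3%) of STAT5 only. In bins of 1 to 2 sites these shares were 43.3%, 22.7% and 34.0%. Site height and background were both higher in dense bins, as given above, and their part in these shares was not tested.

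The lower share of STAT5-higher sites was also seen among sites of similar height. At 100 to 200 reads of both libraries together, 18.1% of sites in dense bins (17.2 to 19.1%) and 26.3% in bins of 1 to 2 sites (24.8 to 27.8%) were higher with STAT5. At 200 to 400 reads the shares were 32.1% (30.7 to 33.6%) and 42.2% (39.5 to 44.9%), and at 400 or more they were 39.0% (36.9 to 41.1%) and 52.2% (46.1 to 58.2%). The medians of the log2 ratio at 400 or more were 0.91 and 1.31.

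STAT3 reads at these STAT5-higher sites were more often above background in dense bins. In dense bins these sites had 142 STAT5 reads and 21 STAT3 reads at the median, and in bins of 1 to 2 sites they had 74 and 8. The 2-fold call allows more STAT3 reads where STAT5 reads are more. The call thus shapes these counts and the multiples below, and its part was not tested. The STAT3 count was 4.23 times the background in dense bins and 2.85 times in the others. It was no more than 2 times the background at 26.4% of the STAT5-higher sites in dense bins (25.2 to 27.7%) and at 35.9% in bins of 1 to 2 sites (34.4 to 37.5%). After the background was subtracted from both counts, a calculation chosen after the data were seen, a ratio over 2 was found at 32.8% of sites in dense bins and 39.8% in bins of 1 to 2 sites, against 30.8% and 38.7% before.

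The background itself leaned to STAT5 a little more in dense bins. Per RPM, background STAT5 was 0.813 of STAT3 in dense bins, 0.784 in bins of 3 to 7 sites, 0.766 in bins of 1 to 2 sites and 0.722 in bins without a site. Values under 1 mean that a smaller share of the STAT5 reads lay outside sites.

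Sites of the same dense bin often differed in balance, though few bins had sites called in both directions. A STAT5-higher site was present in 1731 dense bins (86.7%) and a STAT3-higher site in 409 (20.5%), while 332 had both and 189 had neither. All sites were STAT5-higher in 2 dense bins. Of the variance of the log2 ratio among sites of dense bins, 79.8% lay within bins and 20.2% between them, and the median SD within a bin was 1.33 (1.05 to 1.61). The log2 ratios of neighbouring sites had Pearson's r = 0.195 and Spearman's rho = 0.221 over 19433 pairs. For the 9637 pairs 2000 bp apart or less r was 0.251, and for the 4680 pairs over 5000 bp apart it was 0.129. Neighbouring sites share libraries and local background, and reads of a broad site can fall in both members of a close pair.

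Summed over its sites, the typical dense bin leaned mildly to STAT5. The ratio of summed site RPM had a median of 1.46 (quartiles 1.09 and 1.99) over the 1997 bins, and it ran from 0.492 to 8.11. Over bins of 1 to 2 sites the median was 1.37 (0.771 and 3.87). By this measure the median was higher in dense bins, unlike the median ratio per site. The size of the lean depends on the scaling, since scaling to reads far from sites lowered STAT3 to 0.752 of its RPM level. The summed ratio was called STAT5-higher beyond 2-fold in 385 dense bins (19.3%), against 25.7% of all bins with a site. It was called STAT3-higher in 0 of 1997, against 1.45% of all bins with a site. Sums over 8 or more sites average out single sites, so these shares are not on equal terms with bins of 1 to 2 sites.

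**Figure D5:**
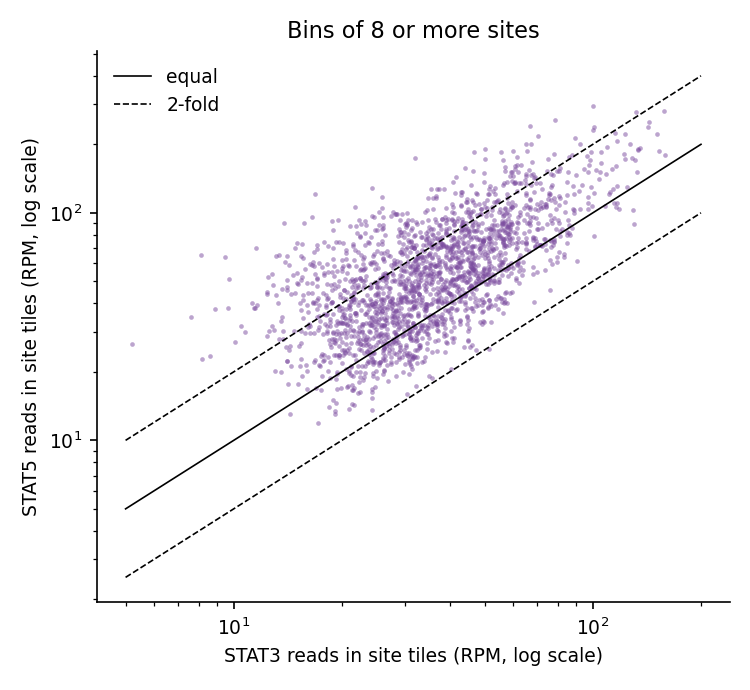
STAT5 against STAT3 reads summed over the site tiles of each of the 1997 dense bins, in RPM on log scales, with lines of equal level and of 2-fold difference. Most bins lie above the line of equality, and the ratios run from 0.492 to 8.11.

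The dense bin that leaned most to STAT5 lies on chromosome 18 from 89350000 to 89399999. Its 9 sites summed to 168 STAT3 and 1178 STAT5 reads, so that STAT5 was 8.11 times as high in RPM (6.90 to 9.59). The 3 tallest sites had 307 STAT5 and 63 STAT3 reads (from 89375600), 277 and 6 (from 89392400) and 268 and 18 (from 89370000), and 7 of the 9 sites were called STAT5-higher. The other 2 had 50 STAT5 and 30 STAT3 reads and 40 and 20. The low STAT3 level did not rest on a single site: the median site of the bin had 10 STAT3 reads, against 52 over all dense bins. It was uneven, since the site from 89375600, with 63 STAT3 reads, was above that median. The background of the bin, 3.31 STAT3 and 3.12 STAT5 reads per tile, was below the dense-bin mean in both.

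On chromosome 11 from 4400000 to 4449999 there were 12 sites with 349 STAT3 and 2172 STAT5 reads (ratio 7.20, 6.43 to 8.09), 9 of them STAT5-higher. The tile from 4402000 had 621 STAT5 and 23 STAT3 reads, that from 4406400 had 466 and 73, and that from 4418800 had 147 and 1. Close to these, the tile from 4410000 had 80 STAT5 and 69 STAT3 reads and was not called. The next bins on the STAT5 side were chromosome 2 from 101500000 to 101549999 (6.75, 5.80 to 7.89), chromosome 11 from 60900000 to 60949999 (6.52, 5.75 to 7.42) and chromosome 1 from 146100000 to 146149999 (6.06, 5.27 to 6.98). The chromosome 11 bin from 60900000 had 8 sites, and all 8 were STAT5-higher.

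On the RPM scale the dense bins that leaned to STAT3 did so less, and mostly with fewer sites called by the 2-fold rule. On chromosome 7 from 26050000 to 26099999, 8 sites summed to 1065 STAT3 and 453 STAT5 reads, and the ratio of STAT5 to STAT3 was 0.492 (0.440 to 0.550). The tile from 26066800 had 314 STAT3 and 58 STAT5 reads and was the 1 site called STAT3-higher. The ratio was below 1 at all 8 sites, from 0.214 at this tile to 0.987. The tiles from 26052400 and 26063600 had 232 and 94, and 177 and 70, and 2 sites were near even, with 80 STAT3 and 66 STAT5 reads at the tile from 26059600 and 68 and 58 at that from 26064800.

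On chromosome 14 from 103200000 to 103249999 the ratio was 0.509 (0.449 to 0.576), again with 1 STAT3-higher site of 8. That site was the tile from 103227600, with 337 STAT3 and 93 STAT5 reads. All 8 sites had a ratio below 1, from 0.319 to 0.792. The remaining bins on that side were chromosome 1 from 182850000 to 182899999 (0.526, 0.456 to 0.606), chromosome 4 from 134300000 to 134349999 (0.528, 0.462 to 0.601) and chromosome 18 from 56600000 to 56649999 (0.528, 0.471 to 0.591). The chromosome 4 bin had 11 sites, 4 of them STAT3-higher and 1 STAT5-higher. Its background was 8.62 STAT3 and 4.32 STAT5 reads per tile. Each of these 5 bins kept 287 to 453 STAT5 reads in its sites, whereas the 5 bins on the STAT5 side had 168 to 349 STAT3 reads.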

How the data were processed

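Chromatin immunoprecipitation reads from 1 STAT3 and 1 STAT5 library of Th17 cells were used. The authors deposited aligned reads, 1 per line, on mm9 per the submitters' processing notes. The aligner, its settings and the step that left at most 1 read per position and strand are not given in any source used here. The score the authors deposited was 0 in every line and was not used. All reads were 25 nt.

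Read 5′ ends were moved 50 bp in the 3′ direction and counted in 400 bp tiles, 125 per 50 kb bin. Ratios were taken on RPM over nuclear reads, with 0.5 reads added for log2 values, and given exact conditional (Clopper-Pearson) 95% intervals. Background was counted in tiles 2000 bp or more from every site. Sites, bins and calls were checked on simulated reads. The simulated sites were narrow, stood apart from each other and lay on a background that was the same in all bins. The check therefore does not cover broad enrichment counted as several sites, or a background that is higher in dense bins. The work used pandas 2.3.3, scipy 1.17.1 and numpy 2.4.6 under Python 3.11.15, with figures by matplotlib 3.10.9.

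The bins and the comparison were chosen with earlier results of these data known. Named bins are the 10 with most sites, the 5 at each end of the summed ratio, the 3 with the highest background per library (10 or more background tiles) and the 3 longest runs. Alternatives changed the bin and tile starts, the minimum of reads and of sites, the strand balance, the shift, the local maximum, the background tiles and the scaling.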

Additional observations from a re-analysis of the deposited data

Results flagged for a closer look

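The rule for dense bins covers chromosomes 1 to 19. Run in the same way on chromosome X, which entered no comparison, it gave 16 bins of 8 or more sites among 3170 with a read (0.505%, exact 95% interval 0.289 to 0.818%), against 4.18% on the autosomes. It is listed because 16 exceeds 3, the upper limit for a count of 0. The largest had 17 sites. The 169 sites of these bins had a median of 41 STAT3 and 47 STAT5 reads, and the 460 sites of chromosome X bins with 1 to 2 sites had 32 and 41. The background was 4.34 STAT3 and 3.26 STAT5 reads per tile in the former and 2.16 and 1.49 in the latter. The cause of the lower share on chromosome X was not tested.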

How the results depend on the processing

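No paired analysis was possible because there is 1 library per antibody, and for the same reason no replicate could be left out. In each recalculation that gave them, planned or added later, sites were taller and background higher in dense bins than in bins of 1 to 2 sites. In each, the median ratio per site leaned less to STAT5 in dense bins, by -0.11 to -0.01 on the log2 scale. STAT5-higher sites were also a smaller share there in each. The difference in median log2 ratio is small, -0.06 in the data as reported (-0.12 to 0.01). These limits set the interval of 1 median against that of the other, over sites that are not replicates. They serve only to label recalculations, and whether they include 0 decides nothing. The difference was -0.10 with a minimum of 20 reads, -0.06 with 6 or more sites and -0.11 with the STAT5 minimum scaled to 26 reads. Of 113 planned recalculations 67 stayed within their limit and 46 moved. The limit was the exact 95% interval for shares and background folds, and 1.5 times for the count of bins. For height folds and the difference in median log2 ratio it combined the limits of 2 medians. The 9 added after the data were seen (without the chromosome 11 bin, and with background subtracted) stayed within it. Dense bins numbered 3439 with a minimum of 20 reads per site, 822 with 50 reads, 3669 with 6 or more sites and 1068 with 10 or more. With a minimum of 20 reads the fold in median height was 1.52 for STAT3 and 1.40 for STAT5, the fold in background 1.72 and 1.79, and the STAT5-higher share of dense bins 18.95%; with 50 reads the STAT3 height fold was 1.29, the background folds 1.90 and 2.09, and the share 26.7%. With 6 or more sites the background folds were 1.63 and 1.71 and the share 23.1%; with 10 or more sites the height folds were 1.46 and 1.36, the background folds 1.91 and 2.05, and the share 21.4%. With a local maximum over 2 tiles each way the height folds were 1.5 and 1.40, the background folds 1.87 and 2.01, and the share 23.4%. Background folds were 1.76 and 1.86 with tiles moved by 200 bp, 1.93 and 2.11 from 1200 bp, 1.63 and 1.69 from 4000 bp, 1.66 and 1.77 without empty tiles, and 1.52 and 1.61 without tiles of 10 or more reads; for STAT5 it was 1.86 with its minimum scaled to 26 reads. Scaling to reads far from sites lowered STAT3 to 0.752 of its RPM level and gave shares of 29.0% STAT5-higher and 0.742% STAT3-higher in dense bins. Moved bin starts, the strand filter and a shift of 75 bp moved none of these values. Beyond what each threshold fixes, the cause was not tested.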
